A study of Mus musculus with 1 sample.

Results

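The 9 genes described here are S100a4, S100a6, S100a10, S100a11, Lgals1, Lgals3, Anxa2, Vim and Capg, out of 32285 genes counted. They were read in peripheral T cells of 1 mouse of the autochthonous SCLC model, a small cell lung cancer in which a Cre-carrying adenovirus given into the lung deletes Rb1 and Trp53, on a C57BL/6 background. The mouse received the vehicle, phosphate-buffered saline, every 3 days. From 150 µl of its blood, T cells were enriched by removing other cells, and gene expression and T cell receptors were sequenced from the same droplets. There is 1 library from 1 mouse, so no value below has replicate error and no comparison has a test. The combination-treated mouse and the healthy reference were not analysed here. The genes were selected on values of this library: their UMIs were seen to differ between barcodes grouped by Cd4, Foxp3, CD8, granzyme and Cd79a UMIs. Their levels across these groups are therefore a description and support nothing further. Each captured RNA molecule carries its own tag and is counted once, as 1 UMI, and a barcode marks 1 droplet, usually 1 cell.

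S100 proteins are small proteins, most of which bind calcium, that change the activity of other proteins, and annexins bind membranes when calcium is high. Galectins bind sugars on glycoproteins, and vimentin and Capg belong to the cytoskeleton, as an intermediate filament and as a protein that caps actin filaments. Naive T cells, which have not met their antigen, make little RNA of many of these genes, whereas effector and memory T cells and regulatory T cells are known to make more.

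Barcodes with at least 1331 UMIs were taken as cells, which left 1600 of 300213 barcodes and 62.0% of 12855001 UMIs. The lowest total kept was 1334 UMIs, the highest left out was 1330 UMIs, and the median kept was 3934.5. The Cd4 class held 351 barcodes with Cd4 and no Cd8a or Cd8b1 UMI. The CD8 classes held barcodes with Cd8a or Cd8b1 and no Cd4 UMI, 106 with a UMI of Gzmk, Gzma or Gzmb, granzymes of cytotoxic cells, and 595 without. The Foxp3 class, named for the regulatory T cell factor, held 39 barcodes, and the Cd79a class, named for a B cell receptor subunit, held 106. A barcode with Cd79a UMIs was put in that class first and one with Foxp3 UMIs second, so that no barcode was counted in more than 1 class. Median totals were 3361 UMIs in the Cd4 class, 3948 in the Foxp3 class, 5664 in the CD8 class without granzyme, 5412 with granzyme and 3657 in the Cd79a class. Of 7 T cell markers all were found in each T class, at a summed 28.2 to 42.9 UMIs per 10000, against 5.73 in the Cd79a class. Of 6 B cell markers all were found in the Cd79a class, at 79.0 UMIs per 10000, against 0.506 to 4.44 in the T classes. Cd79a itself gave 25.2 of the 79.0 and was at 0 in the T classes by their definition, so this part was fixed in advance. Of the 4 basophil markers Prss34, Mcpt8 and Fcer1a were at 0 in all 5 classes, and Cpa3 was at no more than 0.0522 UMIs per 10000. Erythroid markers summed to 0.0412 to 0.139, platelet markers to 0.261 to 1.23 and NK markers to 0.868 to 6.38. Klrd1, which CD8 T cells also make, was at 4.57 of the 6.38 in CD8 with granzyme and at 2.88 of 3.29 without. The 5 regulatory T cell markers summed to 18.0 UMIs per 10000 in the Foxp3 class and to at most 2.62 in the other classes. Foxp3 itself is among them and was at 0 in the Cd4 and CD8 classes by their definition, so its part was fixed in advance. Another 46 barcodes had both Cd4 and CD8 UMIs. The other 357 had no Cd4, Cd8a, Cd8b1, Foxp3 or Cd79a UMI, whatever their granzyme UMIs.

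The 4 S100 genes of the 9 lie on mouse chromosome 3 (GRCm38). S100a4 (chr3:90603770-90606045) and S100a6 (chr3:90612894-90614414) are separated by 6848 bases that hold 1 gene, S100a5. S100a11 (chr3:93520496-93526288) and S100a10 (chr3:93555117-93564645) are separated by 28828 bases that hold 1 gene, Gm29950, and 2906081 bases with 87 genes lie between S100a6 and S100a11. The other genes are on chromosome 15 (Lgals1), 14 (Lgals3), 9 (Anxa2), 2 (Vim) and 6 (Capg). Since the genes were picked because they differ between the same classes, the 250 bases upstream of their starts were searched on both strands for motifs of transcription factor families that act in T cells. RefSeq upstream sequence on GRCm38.p6 was matched by symbol for 7 of the 9 genes and not for Lgals1 and S100a10. The Capg window (chr6:72549397-72549646) lies inside the gene as placed by RefSeq (chr6:72538282-72562983), so the bases upstream of its outermost start were not searched. The 3 windows with a match are shown, on the plus strand, with the matching letters in capitals. They are S100a6 (chr3:90612644-90612893), S100a11 (chr3:93520246-93520495) and Anxa2 (chr9:69453433-69453682).
S100a6: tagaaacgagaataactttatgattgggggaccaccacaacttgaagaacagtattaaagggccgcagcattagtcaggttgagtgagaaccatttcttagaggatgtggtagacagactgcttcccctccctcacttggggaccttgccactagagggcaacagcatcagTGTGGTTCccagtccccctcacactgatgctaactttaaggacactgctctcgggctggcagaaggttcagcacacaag
S100a11: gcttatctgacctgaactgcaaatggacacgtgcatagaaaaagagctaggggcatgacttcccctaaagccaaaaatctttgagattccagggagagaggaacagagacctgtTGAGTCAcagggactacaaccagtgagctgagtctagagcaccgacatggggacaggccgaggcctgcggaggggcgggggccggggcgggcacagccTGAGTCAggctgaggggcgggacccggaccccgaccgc
Anxa2: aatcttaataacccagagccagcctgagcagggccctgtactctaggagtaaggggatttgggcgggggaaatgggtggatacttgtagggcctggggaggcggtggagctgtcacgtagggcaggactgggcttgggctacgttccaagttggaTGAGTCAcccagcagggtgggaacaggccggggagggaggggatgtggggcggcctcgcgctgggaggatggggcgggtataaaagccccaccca
The AP-1 letters TGANTCA occurred in the windows of S100a11, at 136 and at 38 bases before the start, and of Anxa2, at 95 bases. They occurred in 6.75% of 32851 promoter windows of the same length. The RUNX letters TGTGGTTN occurred in the S100a6 window, at 79 bases before the start, and in 4.37% of all windows. The T-box letters TCACACCT (1.12% of windows) and the KLF letters CCACACCC (3.20%) were in none of the 7 windows. No motif overlapped another. A match of letters is a description and not a binding site.

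Summed over the 9 genes by pooled UMIs, the Foxp3 class was highest, with 102 UMIs per 10000 (exact Poisson 95% interval 97.5 to 107). CD8 with granzyme came next, at 79.3 (77.1 to 81.5). The Cd79a class followed at 32.6 (31.0 to 34.3) and the Cd4 class at 26.8 (25.9 to 27.7). CD8 without granzyme was lowest at 15.5 (15.1 to 15.9). All intervals here cover counting error only, since UMIs of 1 cell and cells of 1 mouse share their source. The order was not the same for every gene: by pooled UMIs the Foxp3 class led for 6 of them, within counting error for Lgals1 and Capg. CD8 with granzyme led for S100a6, Lgals3 and Anxa2. By means over barcodes S100a10, S100a11 and Lgals1 were also highest in CD8 with granzyme, and Vim and Capg in the Cd79a class. By pooled UMIs CD8 without granzyme was lowest for 8 of the 9, and only Lgals1 was lower in the Cd79a class. A lower level per UMI could be fewer cells with the RNA or less RNA in each, and the shares of barcodes below bear on this only as far as the depth allows.

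**Figure D1:**
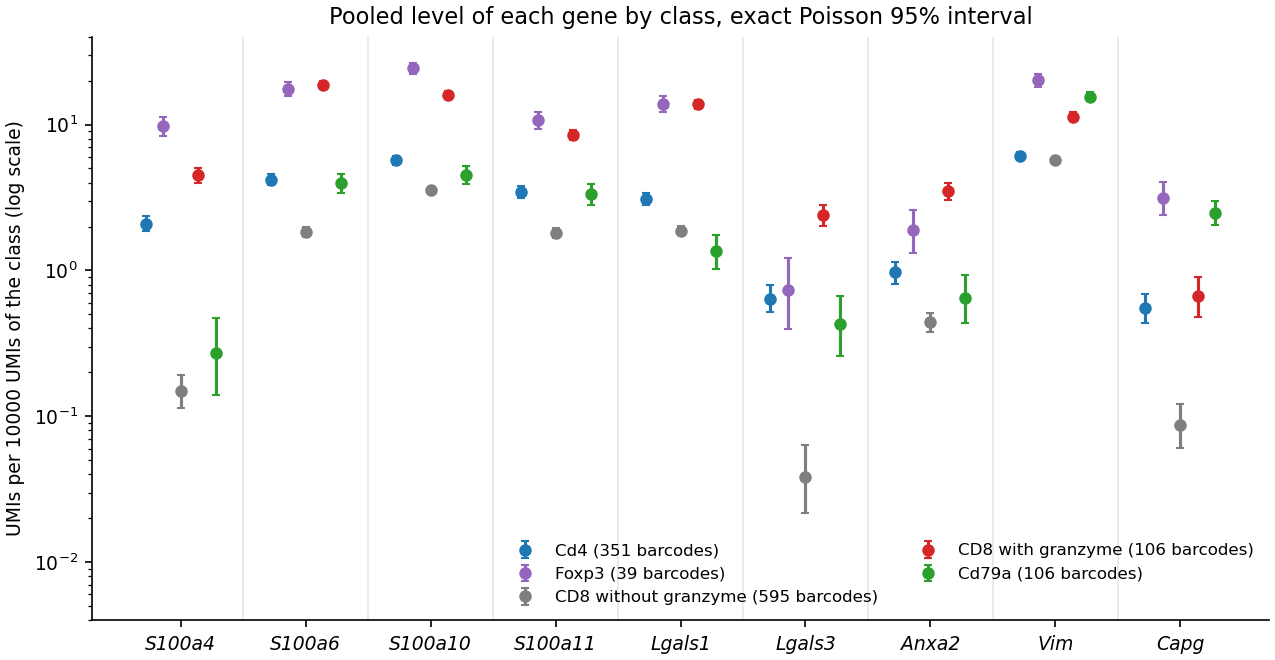
Pooled UMIs of each gene per 10000 UMIs of the class, on a log scale, with exact Poisson 95% intervals, in the 5 classes. CD8 with granzyme sat above CD8 without granzyme for all 9 genes, and Vim and Capg stood higher in the Cd79a class than in CD8 with granzyme.

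Among the S100 genes, S100a4, a regulator of myosin and cell movement, was in the Foxp3 class at 9.71 UMIs per 10000 (8.36 to 11.2). It was at 4.50 (3.996 to 5.06) in CD8 with granzyme, 2.09 (1.86 to 2.35) in the Cd4 class, 0.270 (0.139 to 0.471) in the Cd79a class and 0.149 (0.113 to 0.193) in CD8 without granzyme. Neighbours in this order differed beyond their counting error except for the lowest pair. The barcodes of a class were far from alike. In the Cd4 class 43 of 351 barcodes had any S100a4 UMI, the highest had 59, and the top 36 barcodes held 97.6% of its UMIs. In CD8 with granzyme 57 of 106 barcodes had a UMI, with a median of 1 and a highest of 53. In the Foxp3 class 14 of 39 had a UMI, with a median of 0, and the top 4 barcodes held 73.1% of its S100a4 UMIs.

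S100a6, which binds other calcium-dependent proteins, was about level between CD8 with granzyme (18.8 UMIs per 10000, 17.7 to 19.9) and the Foxp3 class (17.6, 15.8 to 19.6). The ratio of 1.07 had an interval of 0.945 to 1.21, which includes 1. The Cd4 class (4.19) and the Cd79a class (3.98) did not differ beyond counting error either, and CD8 without granzyme was at 1.83. S100a6 UMIs were in 94 of 106 barcodes of CD8 with granzyme, with a median of 6, but in 15 of 39 of the Foxp3 class, with a median of 0. The similar pooled rates of these classes thus came from many barcodes in the first and few in the second.

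S100a10, the partner of Anxa2 in a complex at the cell membrane, was at 24.3 UMIs per 10000 (22.2 to 26.6) in the Foxp3 class and 15.9 (14.9 to 16.9) in CD8 with granzyme. It was at 5.69 in the Cd4 class, 4.54 in the Cd79a class and 3.54 in CD8 without granzyme, and each step in this order exceeded counting error. S100a10 was found in 95.3% of barcodes of CD8 with granzyme and 66.4% of those without. After each barcode was thinned to 2500 UMIs, with shallower ones left out, the shares were 88.1% of 101 and 47.7% of 541. S100a11 was at 10.7 UMIs per 10000 (9.28 to 12.3) in the Foxp3 class, 8.49 (7.78 to 9.24) in CD8 with granzyme, 3.45 in the Cd4 class, 3.33 in the Cd79a class and 1.81 in CD8 without granzyme. The Cd4 and Cd79a classes did not differ beyond counting error.

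The galectins differed from each other. Lgals1, a small galectin with 1 kind of sugar-binding domain, was equal within counting error in the Foxp3 class (13.9 UMIs per 10000, 12.3 to 15.7) and CD8 with granzyme (13.7, 12.8 to 14.7). It was at 3.11 in the Cd4 class, 1.87 in CD8 without granzyme and 1.35 in the Cd79a class. Lgals3, whose protein has a long tail beside its sugar-binding domain, was higher in CD8 with granzyme (2.39 UMIs per 10000, 2.02 to 2.80) than in the Foxp3 class (0.730, 0.399 to 1.23), a ratio of 3.27 (1.89 to 6.12). In CD8 without granzyme it was at 0.0386 (0.0216 to 0.0637), 15 UMIs in 8 of 595 barcodes. Lgals3 was the sparsest of the 9 in the Foxp3 class, with UMIs in 4 of 39 barcodes, and 1 barcode held 45 of the 88 Lgals3 UMIs of the Cd4 class.

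Anxa2, a membrane-binding annexin, was at 3.49 UMIs per 10000 (3.05 to 3.98) in CD8 with granzyme, 1.88 (1.32 to 2.60) in the Foxp3 class and 0.970 (0.812 to 1.15) in the Cd4 class. It was at 0.652 in the Cd79a class and 0.440 in CD8 without granzyme, and these did not differ beyond counting error. It was found in 66 of 106 barcodes of CD8 with granzyme and 94 of 595 without.

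Of the cytoskeletal genes, Vim was the most widespread. It was at 20.1 UMIs per 10000 (18.1 to 22.2) in the Foxp3 class, 15.6 (14.4 to 16.8) in the Cd79a class and 11.3 (10.5 to 12.2) in CD8 with granzyme. The Cd4 class (6.08) and CD8 without granzyme (5.73) did not differ beyond counting error, with a ratio of 1.06 (0.978 to 1.15). Vim UMIs were in 72.9% of barcodes of CD8 without granzyme, more than any other of the 9 genes there. Capg was at 3.13 UMIs per 10000 (2.39 to 4.03) in the Foxp3 class and 2.49 (2.05 to 3.004) in the Cd79a class, which did not differ beyond counting error. It was at 0.664 in CD8 with granzyme, 0.554 in the Cd4 class and 0.0875 in CD8 without granzyme. Capg was found in 51 of 106 Cd79a barcodes against 16 of 106 of CD8 with granzyme.

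Free RNA, which enters droplets without a cell, held the 9 genes at 14.7 UMIs per 10000 in 20532 barcodes of 10 to 50 UMIs. If 5% of the UMIs of each barcode were free RNA, it would give 26.5% of the S100a4 UMIs, 32.6% of the Lgals3 UMIs and 17.1% of the Capg UMIs of CD8 without granzyme. In CD8 with granzyme the same assumption gives between 0.507% and 2.26% of each gene's UMIs. As a background for shares, Cd79a UMIs mark B cells, which are not known for S100a4. Its share after thinning was 2.53% of 79 barcodes there (exact binomial 95% interval 0.308% to 8.85%) and 1.85% of 541 in CD8 without granzyme (0.890% to 3.37%), where it was 4.37% before thinning. No expression is read from a share that low. The 10 thinned barcodes of CD8 without granzyme with S100a4 held S100a6 in 70.0%, against 12.8% of the 531 without it. For Lgals3 the Cd79a class gives no such background, since its pooled level there was 11.1 (5.33 to 23.4) times that of CD8 without granzyme. Of the 19 Lgals3 UMIs of the Cd79a class, 10 came from 1 barcode with 24 T cell marker UMIs and a T cell receptor. The same barcode held 3 of the 12 S100a4 UMIs of that class.

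The rule's first contrast set CD8 with granzyme against CD8 without. Of the 9 genes 8 were at least 2-fold higher with granzyme, and the lower limit of the interval was above 2 for each of these. Over all 9631 genes with at least 20 UMIs in both classes together, 7.49% were at least 2-fold higher, and the median ratio was 1.04. Nothing is read from this, since the genes were chosen by the contrast. The median ratio of the 9 was 7.59. Lgals3 (61.8, 36.3 to 113) and S100a4 (30.2, 22.7 to 40.7) were read against 15 UMIs in 8 barcodes and 58 UMIs in 26 barcodes of CD8 without granzyme, so their size is loosely held. Other ways of processing gave 33.5 to 93.05 and 24.1 to 42.3. S100a6 was at 10.2 (9.32 to 11.2). Anxa2 (7.94), Capg (7.59), Lgals1 (7.33), S100a11 (4.70) and S100a10 (4.50) followed. Vim was lowest, at 1.98 (1.81 to 2.15).

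In the second contrast, the Foxp3 class against the Cd4 class, 7 of the 9 genes were at least 2-fold higher, as were 5.43% of 7943 genes. The ratio was highest for Capg (5.65, 3.96 to 8.03), S100a4 (4.64, 3.84 to 5.597) and Lgals1 (4.47, 3.82 to 5.22). Lgals3 had a ratio of 1.14 (0.598 to 2.01) and Anxa2 of 1.94 (1.30 to 2.82). The 5 barcodes with most UMIs of the 9 genes weighed heavily here: without them in each class the summed ratio went from 3.81 to 2.25 and 6 genes stayed past 2-fold. This left 34 of 39 Foxp3 and 346 of 351 Cd4 barcodes, so a larger share of the Foxp3 class was taken out. The share of all genes past 2-fold was not computed for this setting, so nothing is read from the count. In the third, the Cd4 class against CD8 without granzyme, 5 of the 9 were at least 2-fold higher, as were 7.24% of 9958 genes. These were Lgals3 (16.6, 9.55 to 31.0), S100a4 (14.02, 10.5 to 18.9), Capg (6.33), S100a6 (2.29) and Anxa2 (2.20). With 1 barcode holding 45 of the 88 Lgals3 UMIs of the Cd4 class, Lgals3 ran from 5.74 to 25.8 over other ways of processing and S100a4 from 8.92 to 19.9, both lowest by means over barcodes.

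**Figure D2:**
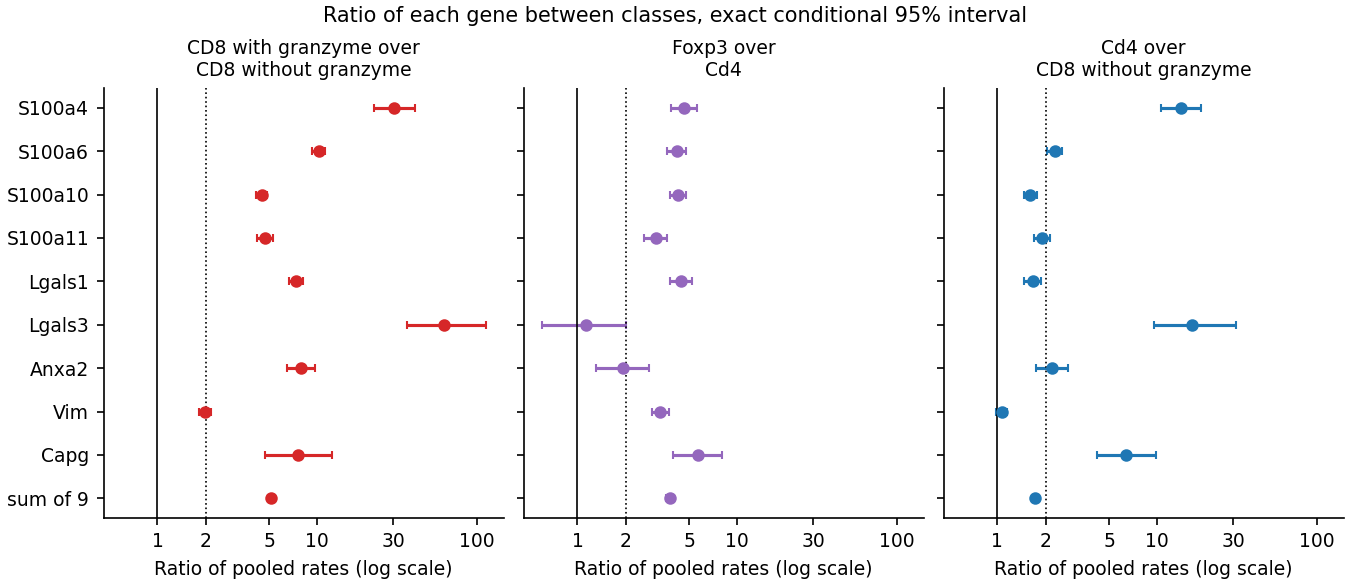
Ratio of the pooled rate of each gene and of the 9 summed between classes, on a log scale, with exact conditional 95% intervals. The solid line marks a ratio of 1 and the dotted line a ratio of 2. Lgals3 and S100a4 had the widest range, and Vim lay near or below 2 in both comparisons with CD8 without granzyme.

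The Foxp3 and granzyme classes, both high, differed in single genes by pooled UMIs. Relative to CD8 with granzyme, the Foxp3 class was at 4.72 (3.13 to 7.17) for Capg and 2.15 (1.78 to 2.60) for S100a4. The S100a4 ratio rests on few barcodes, since the top 4 of 39 Foxp3 barcodes held 73.1% of its UMIs there. S100a4 was found in 14 of 39 Foxp3 barcodes against 57 of 106 with granzyme, and Capg in 14 of 39 against 16 of 106. The Foxp3 class was at 0.306 (0.163 to 0.530) for Lgals3 and 0.538 (0.367 to 0.767) for Anxa2. Relative to the Cd4 class, the Cd79a class was at 4.50 (3.33 to 6.11) for Capg and 2.56 (2.31 to 2.84) for Vim, against 0.129 (0.0658 to 0.229) for S100a4 and 0.434 (0.326 to 0.570) for Lgals1. Relative to CD8 with granzyme, it was at 3.76 (2.61 to 5.496) for Capg and 1.37 (1.24 to 1.53) for Vim.

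Counted per barcode, the summed level of the 9 genes in CD8 with granzyme had a median of 66.5 UMIs per 10000 and a highest value of 358. In CD8 without granzyme the median was 9.03 and the highest 185. The barcode at 185 had 2375 UMIs, 44 of them of the 9 genes, 25 of these S100a11. It also held 39 UMIs of NK markers and had a ribosomal share under 10%. The Cd4 class had the lower median, 4.99, but reached 395, and the Foxp3 class had a median of 16.004 and a highest value of 339. The Cd79a class had a median of 13.6 and a highest value of 170. All classes overlapped. The Cd4 class was thus above CD8 without granzyme by pooled UMIs and below it by the median barcode. The top 36 of its 351 barcodes held 68.6% of its UMIs of the 9 genes, against 42.1% in the top 60 of 595 of CD8 without granzyme.

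**Figure D3:**
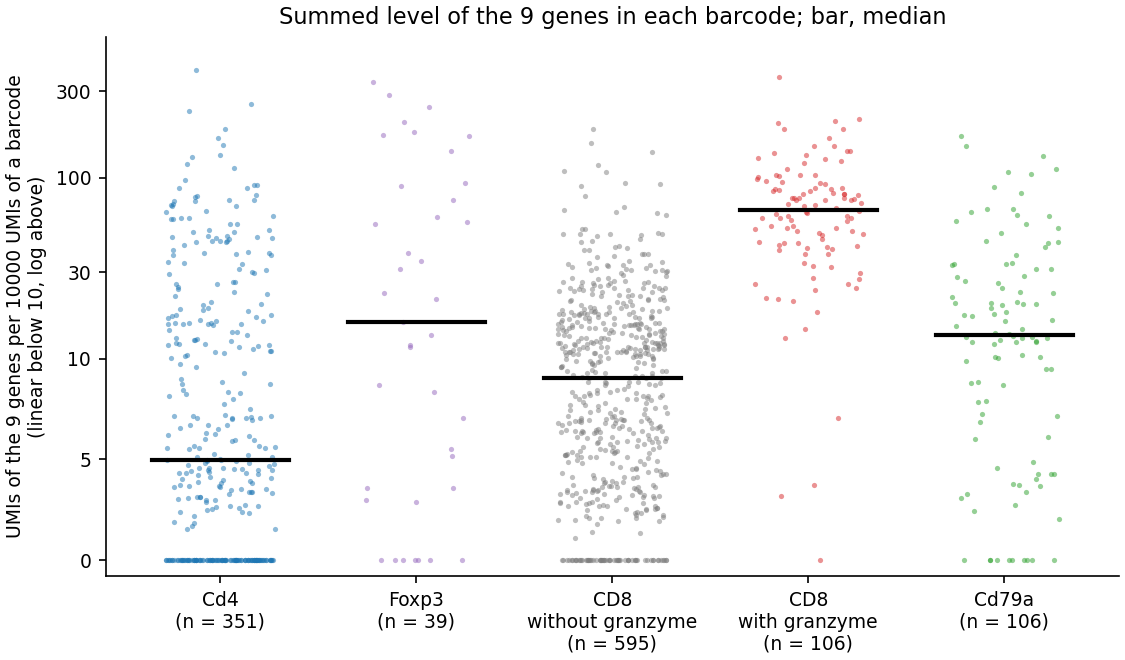
UMIs of the 9 genes per 10000 UMIs of a barcode, linear below 10 and on a log scale above, with 1 point per barcode and a bar at the class median. Barcodes of CD8 with granzyme sat around 66.5, whereas the Cd4 class spread from 0 to 395.

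In barcodes thinned to 2500 UMIs, a median of 5 of the 9 genes was found in CD8 with granzyme, 3 in the Foxp3 class, 3 in the Cd79a class, 2 in CD8 without granzyme and 1 in the Cd4 class. None of the genes was found in 0 of 101 barcodes of CD8 with granzyme, which allows up to 2.97%, and in 35.5% of 265 of the Cd4 class. At least 5 were found in 71.3% of CD8 with granzyme, 35.3% of 34 Foxp3 barcodes, 16.2% of the Cd4 class, 10.1% of 79 Cd79a barcodes and 5.55% of CD8 without granzyme. All 9 were found in 4 barcodes of CD8 with granzyme, 1 of the Foxp3 class and 1 of the Cd4 class.

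**Figure D4:**
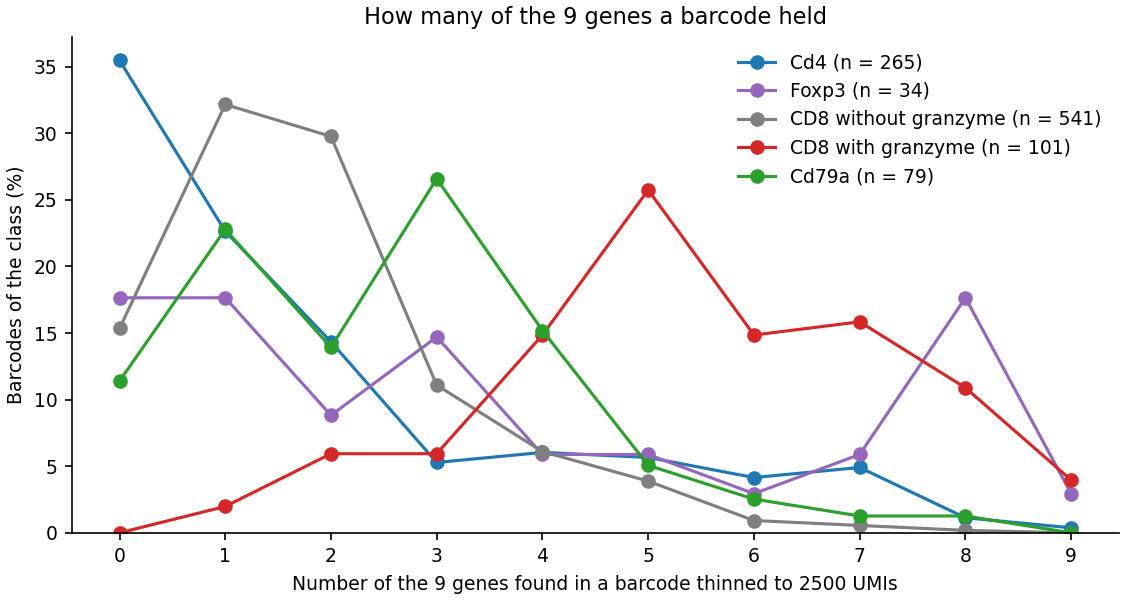
Share of the barcodes of each class, in percent, that held a given number of the 9 genes after thinning to 2500 UMIs. Most barcodes of the Cd4 class held 0 or 1, while 71.3% of CD8 with granzyme held 5 or more.

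Within the Cd4 class the genes tended to be found in the same barcodes. All 72 ordered pairs of genes showed the second gene more often in barcodes with the first than in those without, by a median of 36.0 percentage points. Both orders of a pair come from the same counts and share their sign, so such counts of pairs are not of separate results. Of the 35 Cd4 barcodes with S100a4, 85.7% also held S100a6, against 9.13% of the 230 without, and 88.6% held S100a11, against 19.1%. The shares were lower for Anxa2 (14 of 35 barcodes against 15 of 230), Capg (31.4% against 5.65%) and Lgals3 (14.3% against 3.04%). The Foxp3 class had a larger median difference, 44.6 points, above 0 in 56 of 56 pairs. In CD8 without granzyme the median difference was 9.40 points over 64 pairs with at least 10 barcodes on each side, and it was above 0 in 60. In CD8 with granzyme it was 16.6 points, above 0 in 72 of 72. Each gene's Pearson correlation with the sum of the other 8, on the natural log of 1 plus UMIs, was 0.315 to 0.734 over 265 Cd4 barcodes, with S100a11 at the top and Lgals3 at the bottom. It was 0.0565 to 0.412 over 541 barcodes of CD8 without granzyme. These barcodes share 1 library and, after thinning, 1 depth. Barcodes low in ribosomal protein UMIs, described next, held few UMIs of the 9 genes, and the pairs were not computed without them.

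Barcodes with under 10% of their UMIs in ribosomal protein genes held few UMIs of the 9. They were 40.5% of the Cd4 class, 33.1% of CD8 without granzyme, 23.1% of the Foxp3 class and 11.3% of CD8 with granzyme. In the Cd4 class the summed level was 4.64 UMIs per 10000 in 142 such barcodes and 35.9 in the other 209. In CD8 without granzyme it was 6.14 in 197 and 17.5 in 398, and in CD8 with granzyme 50.3 in 12 and 81.5 in 94. The part of the ribosomal share in the levels was not tested. Among barcodes of at least 10%, the ratio of CD8 with to without granzyme was 4.65, of Foxp3 to Cd4 3.23, and of Cd4 to CD8 without granzyme 2.05. The 9 myeloid markers, all found in the Foxp3 class, summed to 30.4 UMIs per 10000 there, against 1.83 to 2.80 in the other classes. A single barcode of 2670 UMIs held 553 of the 583 myeloid UMIs and 24 UMIs of the 9 genes. Without it the myeloid markers were at 1.59. A single barcode of 3620 UMIs in CD8 without granzyme held 247 of 1088 myeloid UMIs and 56 UMIs of the 9 genes. B cell markers were also higher in the Foxp3 class, at 4.44 against 1.16 in the Cd4 class and 3.79 without the barcode that held most. They were mostly Ighm, found in 22 of 39 barcodes against 108 of 351. The Foxp3 barcode with 508 UMIs of the 9 genes held 18 of the 85 B cell UMIs, and the part of these in the levels was not tested. Leaving out every barcode with 2 or more UMIs of myeloid, basophil, platelet or erythroid markers left 29 Foxp3 and 259 Cd4 barcodes and a ratio of 3.74. With these barcodes left out, all 9 genes were past 2-fold in the Foxp3 contrast and 3 of 9 in the contrast of Cd4 with CD8 without granzyme. The share of all genes was not computed for this setting. Of the remaining Foxp3 UMIs, 1 barcode held 12 of 17 for Anxa2 and 5 of 9 for Lgals3. Without the highest barcode of each class, Anxa2 was at 0.449 in the Foxp3 class against 0.538 in the Cd4 class, and Lgals3 at 0.360 against 0.258.

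The 39 Foxp3 barcodes were themselves uneven. Only 18 had a Cd4 UMI, and these had the 9 genes at 141 UMIs per 10000 (134 to 148). The other 21 were at 53.7 (48.9 to 58.8). Without the highest barcode of each they were at 108 and 43.0. A ribosomal share under 10% was found in 1 of the 18 and 8 of the 21. The 13 with 2 or more Foxp3 UMIs had the 9 genes at 171 UMIs per 10000 (161 to 181), and the 26 with 1 Foxp3 UMI at 62.2 (57.8 to 66.8). The 29 with a T cell receptor clonotype were at 115 (110 to 121) and the 10 without at 17.2 (12.5 to 23.0). Among those 10, 7 had a ribosomal share under 10%, against 2 of the 29. The highest Foxp3 barcode, with 14970 UMIs, held 508 UMIs of the 9 genes, of which 139 were S100a10, 101 S100a6 and 100 Vim, and no Lgals3. Without it the 12 others with 2 or more Foxp3 UMIs were at 125. These splits were chosen after the values had been seen.

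Within CD8 with granzyme, the kind of granzyme went with different genes, a split also chosen after the values had been seen. The 39 barcodes with Gzmk only had the 9 genes at 65.0 UMIs per 10000 (61.6 to 68.5). The 41 with Gzmk and Gzma or Gzmb were at 88.9 (85.3 to 92.6) and the 26 with Gzma or Gzmb and no Gzmk at 82.7 (78.4 to 87.2). A single barcode held 489 of the 1374 UMIs of the last, and without it they were at 58.0. S100a10 was at 16.03 (14.4 to 17.8) with Gzmk only, 20.6 (18.9 to 22.4) with both and 8.55 (7.20 to 10.1) without Gzmk. S100a11 followed the same order, at 9.15, 10.2 and 4.99. Lgals3 was at 1.09 (0.692 to 1.64) with Gzmk only, 1.76 (1.28 to 2.35) with both and 4.99 (3.98 to 6.19) without Gzmk, and 2.95 in the last when its highest barcode, with 38 of the 83 Lgals3 UMIs, was left out.

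The T cell receptor table, which had no part in choosing the genes, gave a clonotype, a set of cells with the same receptor, to 95 of 106 barcodes of CD8 with granzyme, 418 of 595 without and 252 of 351 of the Cd4 class. In CD8 with granzyme, the 43 barcodes of clonotypes with 2 or more barcodes had the 9 genes at 92.8 UMIs per 10000 (88.8 to 96.8), and 52 barcodes alone in their clonotype at 73.6 (70.8 to 76.4). Without the highest barcode of each they were at 88.4 and 62.6. S100a10 was at 20.5 against 13.3 and Lgals1 at 16.8 against 12.3, whereas Vim was at 10.97 against 11.8, Lgals3 at 2.04 against 2.82 and Capg at 0.489 against 0.732. A single barcode held 92 Vim, 38 Lgals3 and 16 Capg UMIs of the single ones, and without the highest barcode of each group the direction turned for all 3, to 10.6 against 9.66, 2.13 against 1.86 and 0.508 against 0.310. In the Cd4 class 12 barcodes of 6 larger clonotypes were at 122 and 240 single ones at 26.8, and without the highest barcode of each, which held 424 of the 720 UMIs of the former, they were at 61.0 and 24.1. The 12 barcodes of larger clonotypes in CD8 without granzyme were at 28.2 and 406 single ones at 16.6. Without the highest barcode of each they were at 21.1 and 16.3, and the highest of the 12, with 56 of their 192 UMIs, was the barcode of 3620 UMIs with myeloid RNA named above. Barcodes without a clonotype were lowest in each class, at 5.93 in the Cd4 class, 8.74 in CD8 without granzyme and 55.4 with granzyme, and 89 of 99, 149 of 177 and 4 of 11 of them had a ribosomal share under 10%.

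The 3 clonotypes with at least 5 barcodes, named by their β-chain genes, had the sum of the 9 genes above that of CD8 with granzyme as a whole, and single genes were absent from some. TRBV12-2/TRBJ1-6, with 9 barcodes, was at 104 UMIs per 10000, TRBV1/TRBJ1-4, with 8, at 85.0, and TRBV15/TRBJ2-5, with 5, at 123. A single barcode held 175 of the 375 UMIs of TRBV1/TRBJ1-4, and without the highest barcode of each the levels were 92.2, 56.5 and 106, so that TRBV1/TRBJ1-4 fell under the 62.6 of barcodes alone in their clonotype. Lgals3 was at 8.40 in TRBV12-2/TRBJ1-6, with UMIs in 6 of 9 barcodes, and had no UMI in 8 barcodes and 44131 UMIs of TRBV1/TRBJ1-4. It was at 1.07 in TRBV15/TRBJ2-5, in which S100a6 reached 50.4, against 24.8 and 22.7. Capg had 10 UMIs in the first, 0 in the second and 1 in the third, and S100a4 was found in 7 of 9, 3 of 8 and 1 of 5 barcodes. Vim was at 20.3 in the first, 8.38 in the second and 8.58 in the third, and at 17.7, 5.65 and 2.74 without the highest barcode of each. Of these barcodes 6 of 9, 8 of 8 and 4 of 5 were in CD8 with granzyme. In TRBV12-2/TRBJ1-6, 1 was the Cd79a barcode with T cell marker UMIs named above. It held 26 of the 112 S100a6 and 10 of the 38 Lgals3 UMIs of that clonotype. In TRBV15/TRBJ2-5, 1 was the barcode of 3620 UMIs with myeloid RNA, with 32 of the 67 S100a11 UMIs. The levels of 1 clonotype rest on the few cells of 1 ancestor.

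To see what went with the 9 genes inside a class, thinned barcodes were ordered by their UMIs of these genes, and the upper end was set against the lower, with as many barcodes in each. Ties were taken in the order in which the barcodes are listed. In the Cd4 class the upper 66 barcodes had 6 to 100 such UMIs of 2500 and the lower 66 had 0. Since 94 of the 265 barcodes had 0, the lower 66 are only a part of these. A memory list of 21 genes and a naive list of 12 were read in them. Of the 21 memory genes 16 had at least 20 UMIs in both ends together, and 15 of these were at least 2-fold higher in the upper barcodes, as were 14.9% of 3247 other genes. Genes such as Maf (21 UMIs against 1), Rora (35 against 2) and Ly6c2 (39 against 2) reached 20 UMIs only through the upper barcodes, so nothing is read from this count or from the like counts below. Cxcr3, a homing receptor, had 38 UMIs against 0, at least 12.7-fold higher when computed from 3 counts. The largest ratios were those of Ccl5, a chemokine (201, 68.6 to 979, 604 UMIs against 3), and Il2rb, an interleukin receptor chain (41.0, 6.96 to 1658). Id2, a transcription regulator (37.5, 10.0 to 315), and Ahnak, a large scaffold protein (22.0, 9.84 to 61.0), came next. Of 11 naive genes 7 were at least 2-fold lower, against 28.5% of the other genes. The lowest were Satb1 (0.0503), Bach2 (0.108), Foxp1 (0.131) and Lef1 (0.150), all transcription regulators of resting or naive T cells. Klf2, which keeps T cells circulating, was not lower (1.50, 1.24 to 1.82), nor was Il7r (1.05, 0.880 to 1.27).

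The lower 66 of the Cd4 class held 37 barcodes with a ribosomal share under 10% and the upper 66 held 2. With such barcodes left out before ordering, which left 44 at each end, 13 of 14 memory genes were at least 2-fold higher, against 12.9% of 1845 other genes, and 7 of 11 naive genes at least 2-fold lower, against 7.91%. The ratios of Satb1, Bach2, Foxp1 and Lef1 were then nearer to 1, at 0.138, 0.220, 0.230 and 0.272, Igfbp4 became the lowest at 0.0581 (0.0184 to 0.141), and Klf2 was at 1.08 (0.873 to 1.35). Of the upper 66, 64 had a clonotype and 8 were in one of 2 or more barcodes, against 44 and 0 of the lower 66. The memory and naive lists were chosen with values of these data known.

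In CD8 without granzyme the upper 135 barcodes had 4 to 42 UMIs of the 9 genes and the lower 135 had 0 or 1. Only 83 of the 541 barcodes had 0, so the lower 135 were filled up from barcodes with 1, with ties taken as above. Of 15 memory genes 8 were at least 2-fold higher, as were 7.15% of 5189 other genes. Ccl5 (20.8, 16.1 to 27.2), Cxcr3 (9.50, 3.42 to 36.6), Ly6c2, a surface protein of memory CD8 T cells (4.10, 3.31 to 5.13), and Crip1 (3.21, 2.61 to 3.98) were highest. Of 12 naive genes 6 were at least 2-fold lower, against 29.5% of the others, with Bach2 (0.210), Satb1 (0.292), Foxp1 (0.303) and Lef1 (0.375) lowest. Ccr7, a receptor that brings naive cells into lymph nodes, was at 0.960 (0.783 to 1.18). Low ribosomal shares were found in 70 of the lower 135 barcodes and 5 of the upper. Without such barcodes 8 of 14 memory genes were at least 2-fold higher (5.16% of 3414 others) and 3 of 12 naive genes at least 2-fold lower (5.95% of others). Satb1 then had a ratio of 0.798 (0.570 to 1.11), Foxp1 of 0.694, Bach2 of 0.467 and Lef1 of 0.454. Ccr7 was then lower beyond counting error (0.670, 0.529 to 0.848), and Igfbp4 was lowest (0.160, 0.0901 to 0.269).

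**Figure D5:**
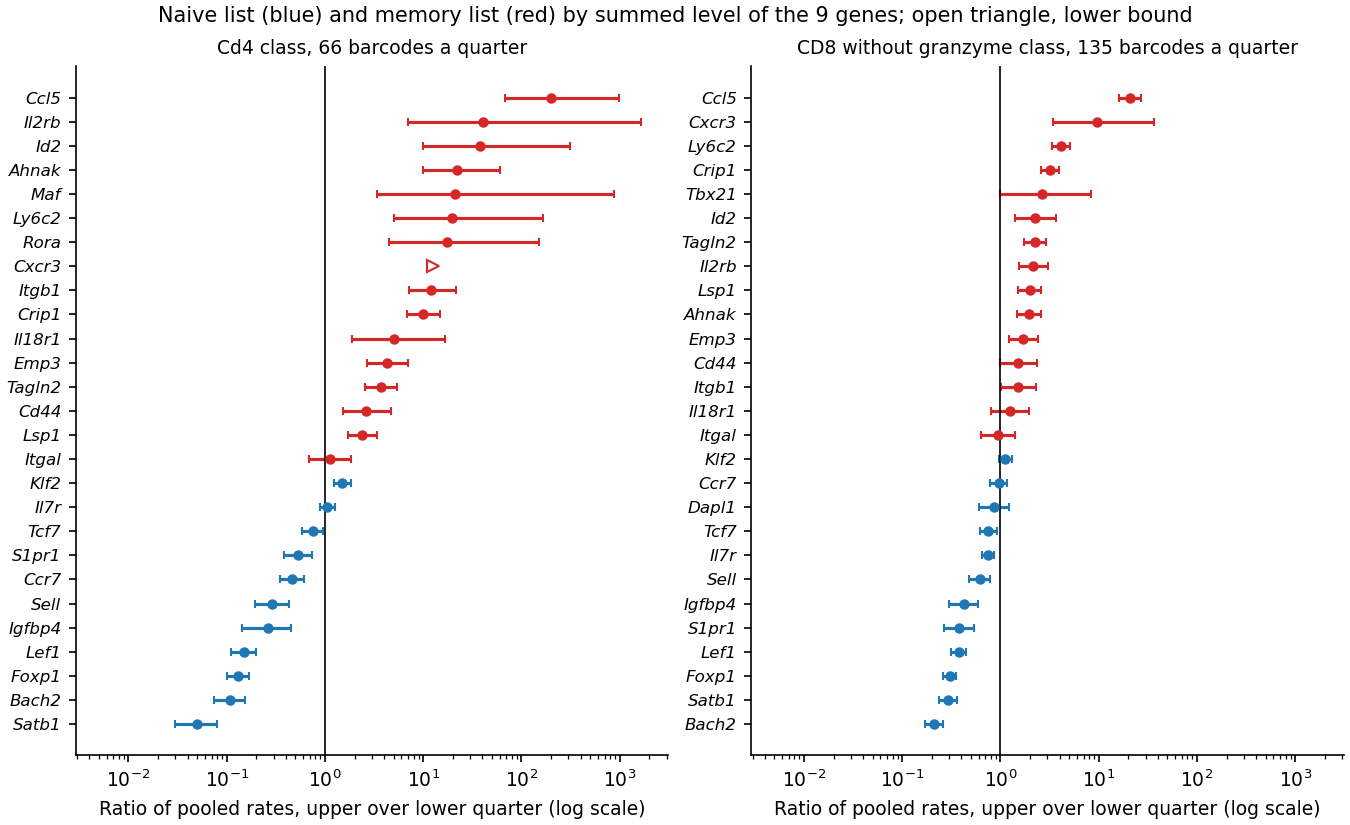
Ratio of pooled UMIs between the upper and lower barcodes after thinning and ordering by the 9 genes (66 at each end in the Cd4 class, 135 in CD8 without granzyme), on a log scale, with exact conditional 95% intervals, for naive (blue) and memory (red) list genes with at least 20 UMIs. In the Cd4 class memory genes reached 201 (Ccl5) and naive genes 0.0503 (Satb1), and in CD8 without granzyme 20.8 and 0.210 (Bach2).

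Across the classes the same lists went with the 9 genes unevenly. The 9 genes were picked by these classes, and the lists were chosen with values of these data known. Genes such as Klrg1 (51 UMIs against 0) reached 20 UMIs only through the class where they were high. Nothing is therefore read from the counts below, and the ratios are a description. In CD8 with granzyme over without, 16 of 21 memory genes were at least 2-fold higher, against 7.49% of all genes. Of 12 naive genes 9 were at least 2-fold lower, against 9.96% of all genes. Klrg1, a receptor of effector cells, had 51 UMIs with granzyme and 0 without, at least 104-fold higher from 3 counts over the class. Cx3cr1, a chemokine receptor of effector cells (30.5, 19.5 to 49.4), Prdm1 (18.4, 8.77 to 42.3) and Maf (16.1, 6.86 to 42.1) followed. Igfbp4 (0.0395), Dapl1 (0.0821), Ccr7 (0.180) and Satb1 (0.198) were lowest. In Foxp3 over Cd4, 7 of 19 memory genes were at least 2-fold higher, against 5.43% of all genes. Of 12 naive genes 5 were at least 2-fold lower, against 14.7% of all genes. Klrg1 (53.2, 24.1 to 139), Ccr2 (18.3, 10.1 to 35.004), Crip1 (2.87) and Il2rb (2.56) were highest there, and Satb1 (0.264), Tcf7 (0.318), Ccr7 (0.399) and Bach2 (0.434) lowest. Ccl5 was 14.6 (14.2 to 15.1) times as high with granzyme and 1.28 (1.12 to 1.47) times in Foxp3 over Cd4, although the 9 genes were high in both classes. In Cd4 over CD8 without granzyme, 4 of 20 memory genes were at least 2-fold higher, against 7.24% of all genes. Another 3 were at least 2-fold lower, against 3.84% of all genes. The 12 naive genes had a median ratio of 1.46 in this contrast, against 1.18 for all genes. Of these 12, 1 was at least 2-fold higher (Igfbp4, 2.28) and 1 at least 2-fold lower (Dapl1, 0.332). By pooled UMIs the Cd4 class was thus higher in the 9 genes without being lower in the naive list as a whole.

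Over 941 thinned barcodes of the T classes and 3773 genes found in at least 10% of them, Ccl5 had the highest Pearson correlation with the summed 9 genes (0.592). Crip1, a LIM domain protein (0.582), Actb (0.548), Tmsb4x (0.528), Actg1 (0.517), Rac2 (0.503), Nkg7 (0.493) and Pfn1 (0.491) followed. Of these 8, Actb, Actg1, Tmsb4x and Pfn1 encode actin or proteins that bind its monomers, and Rac2 a small GTPase. Actb was at 82.9 UMIs per 10000 in the Foxp3 class and 82.8 in CD8 with granzyme, against 44.1 in the Cd4 class and 42.2 in CD8 without granzyme. Nkg7, of cytotoxic granules, was instead at 29.6 in CD8 with granzyme and 2.71 in the Foxp3 class. These correlations are a description over barcodes that share 1 library.

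Other genes of the same families were read beside the 9. Of 30 other S100, annexin, galectin and gelsolin family genes, 18 had at least 20 UMIs over the classes. Of 15 with at least 20 UMIs in both CD8 classes together, 3 were at least 2-fold higher with granzyme, as were 7.49% of all genes: Anxa1 (12.3, 4.64 to 36.0, from 14 and 7 UMIs), S100a13 (3.02, 2.53 to 3.60) and Anxa6 (2.14, 1.87 to 2.44). Anxa5, Anxa7, Anxa11, Lgals8, Lgals9, Lgals3bp, Gsn and Svil had ratios of 1.03 to 1.73, and Flii of 2.00 (1.50 to 2.63), just under 2-fold. Another 3, S100a8, S100a9 and Avil, were at least 2-fold lower, as were 9.96% of all genes. They had 0 UMIs with granzyme and 248, 289 and 25 without, and so reached 20 UMIs only through the class without granzyme. The interval of Avil went up to 0.977. Nothing is read from these 3. In Foxp3 over Cd4, Anxa1 was at 11.8 (5.80 to 24.7), Anxa6 at 1.63 (1.23 to 2.12) and S100a13 at 1.62 (1.13 to 2.29). S100a8 and S100a9, which neutrophils make, had 241 and 253 UMIs in the Foxp3 class, 248 and 289 in CD8 without granzyme, and at most 3 in each other class. Both are among the myeloid markers, of which a single barcode held most in the Foxp3 class. In CD8 without granzyme a single barcode held 247 of the 1088 UMIs of these markers. S100a3, S100a5, S100a14, S100a16, S100b, S100g, S100z, Anxa3, Lgals2, Lgals12, Vil1 and Scin had 0 to 3 UMIs over all classes, although S100a5 lies between S100a4 and S100a6.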

How the data were processed

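Peripheral T cells of 1 vehicle-treated mouse were analysed. The authors processed the reads with Cell Ranger (version 4 per the file header) against GRCm38 (submitters' processing notes) and deposited unnormalized UMI counts of every barcode, empty droplets included, and a table of receptor contigs with clonotypes. Positions and upstream sequences are RefSeq's on GRCm38.p6, matched by symbol. The members and lists were chosen with earlier results of these data known.

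The UMI minimum is the 99th percentile of the 3000 highest barcode totals divided by 10. Doublets were kept. UMIs were pooled over a class per 10000, with exact Poisson intervals. Ratios of classes have exact conditional binomial intervals and shares exact binomial (Clopper-Pearson) intervals, all at 95% and for counting error only. With 1 library no test was run. Thinning drew each barcode to 2500 UMIs without replacement. Other family genes were named from 20 UMIs over the classes. Of list genes with at least 20 UMIs, the 4 most extreme per direction were named, and the 8 genes of highest correlation. Functions were tested on simulated data with known folds. Python 3.11.15, numpy 2.4.6, pandas 2.3.3, scipy 1.17.1 and matplotlib 3.10.9 were used. Alternatives were other cell limits, classes allowed to share barcodes, 2 UMIs to call a class, limits on ribosomal share, clonotype, foreign lineages or top barcodes, means over barcodes, thinning, subtraction of free RNA, and calling granzyme from Gzma or Gzmb alone.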

Additional observations from a re-analysis of the deposited data

Results flagged for a closer look

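The 9 genes also had UMIs in barcodes that no class holds. In 1908 barcodes of 200 UMIs up to the minimum of 1331 they were at 19.0 UMIs per 10000 (exact Poisson 95% interval 18.0 to 20.006), against 14.7 in barcodes of 10 to 50 UMIs, which hold free RNA. In 46 barcodes with both Cd4 and CD8 UMIs they were at 18.6 (16.8 to 20.6), between the Cd4 class and CD8 without granzyme. In 357 barcodes with no Cd4, Cd8a, Cd8b1, Foxp3 or Cd79a UMI they were at 35.8 (34.8 to 36.9). T cell markers summed to 21.0 there, myeloid markers to 107 and erythroid markers to 614 UMIs per 10000. Of the 357, 242 held 2 or more UMIs of T cell markers, 88 of myeloid markers and 34 of erythroid markers. A clonotype was given to 127, and 221 had a ribosomal share under 10%. S100a11 was at 7.66 and S100a6 at 8.19 in the 357 barcodes, both above the Cd4 class. The library has no control sample, and these values stand out only in that a count of 0 would allow far less.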

How the results depend on the processing

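The summed ratio stayed above 1 in every alternative run, for CD8 with over without granzyme (5.12) between 4.65 and 5.61, for Foxp3 over Cd4 (3.81) between 2.25 and 5.03, and for Cd4 over CD8 without granzyme (1.73) between 1.28 and 2.16. Values that moved beyond the counting interval follow in that order. They were 5.61, 5.03 and 2.16 with at least 2 UMIs of the class genes, and 4.65, 3.23 and 2.05 with a ribosomal share of at least 10%. Means over barcodes gave 5.58, 3.33 and 1.37, thinning 5.56, 3.08 and 1.60, and leaving out the 5 highest barcodes of each class 4.66, 2.25 and 1.28. Clonotyped barcodes gave 4.81 for the first and 1.90 for the last, free RNA subtraction 5.32 and calling granzyme from Gzma or Gzmb alone 5.58, both for the first. Classes that may share barcodes gave 3.32 and 1.90 for the other two. The last was 1.89 with at least 2500 UMIs and 1.48 without barcodes of other lineages. The cause was not tested. In Cd4 over CD8 without granzyme, 3 of the 9 genes in place of 5 were past 2-fold by means over barcodes, without other lineages and without the 5 highest barcodes. The count was 7 with at least 2 UMIs of the class genes and with classes that may share barcodes, 6 with at least 2500 UMIs, a ribosomal share of at least 10% or a clonotype, and 4 after thinning. The share of all genes past 2-fold was not computed for any of these settings, so nothing is read from these counts. Of the single-gene values 108 of 108, 97 of 99 and 95 of 99 kept their direction. The exceptions were 2 values of Lgals3 in Foxp3 over Cd4 and 4 of Vim and Lgals1 in Cd4 over CD8 without granzyme. Without the 5 highest barcodes Lgals1 there went from 1.66 to 0.959. In Foxp3 over Cd4, S100a10 ran from 2.004 to 7.09. Depth limits Lgals3 most, with 14 UMIs in the Foxp3 class of 39 barcodes and 15 in CD8 without granzyme. No paired analysis was possible because there is 1 library.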
